A study of Mus musculus with 6 samples.

Results

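The members described here are 10 genes of the interleukin-1 (IL-1) family and its receptors, Il1b, Il1a, Il1rn, Il1r1, Il1r2, Il1rap, Il1rl1, Il18, Il18r1 and Il18bp. They were chosen by name and taken from a count table of 49315 genes. Each was followed across 6 bulk RNA-seq libraries of regulatory T cells (Tregs, a CD4+ T cell type marked by the transcription factor Foxp3 that holds immune responses in check). The libraries comprise 3 of skin Tregs and 3 of Tregs from the skin-draining lymph nodes (SDLNs), lettered A to C within each tissue. All mice were Foxp3-GFP reporters, which make green fluorescent protein from the Foxp3 locus, and none was treated. They were 9 days old, and cells of 3 mice were pooled into each sample. Live CD45+ CD4+ Foxp3-EGFP+ cells were sorted after the tissue had been digested and CD45+ cells had been enriched on beads. The lymph node samples also carry skin as their tissue label, so the groups rest on the sample titles. The sex and the strain background of the mice are not given in the labels. For the study's mice in general, the methods state a C57BL/6J background and the use of both sexes.

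IL-1 family cytokines are alarm signals that act on neighbouring cells. IL-1α (Il1a), IL-1β (Il1b) and IL-18 (Il18) are ligands. IL-1β and IL-18 are made as precursors that the protease caspase-1 cuts within inflammasomes, and macrophages, monocytes and dendritic cells are well-known sources of IL-1β. The receptor antagonist (Il1rn) blocks the IL-1 receptor, and IL-18 binding protein (Il18bp) captures IL-18. The signalling receptors IL-1R1 (Il1r1), ST2 (Il1rl1, the receptor of IL-33) and IL-18Rα (Il18r1) each need an accessory chain, which for IL-1R1 and ST2 is IL-1RAP (Il1rap). IL-1R2 (Il1r2) binds IL-1 but cannot signal and serves as a decoy. Tregs of barrier tissues are known for ST2, and activated Tregs for IL-1R2.

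The 10 genes lie in a few places of the mouse genome (GRCm38). Il1r2, Il1r1, Il1rl1 and Il18r1 lie on the plus strand of chromosome 1 within 426.8 kb, from base 40074079 to base 40500854, and 136 bases separate the end of Il1rl1 from the start of Il18r1. Il1a and Il1b lie on the minus strand of chromosome 2, 54.6 kb apart, and Il1rn is also on chromosome 2. The other members are Il18bp on chromosome 7, Il18 on chromosome 9 and Il1rap on chromosome 16. The adjacent genes Il1rl1 and Il18r1 were not above the detection limit in any one skin library together.

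The sequences before the start sites of Il1b and Il1rl1 are given because these genes had the highest skin values of all members, and because the Il1rl1 count combines transcripts from 2 annotated starts. Each run is 250 bases that end just before a start site, from RefSeq on GRCm38.p6, read 5′ to 3′ on the strand of the gene. For Il1b (chr2:129371140-129371389, minus strand), capitals mark a TATA box, TATAAA, and a match to the C/EBP letters TTNNGNAA. For Il1rl1 (chr1:40429320-40429569 and chr1:40439379-40439628, plus strand), capitals mark the GATA letters GATAA on either strand.
Il1b: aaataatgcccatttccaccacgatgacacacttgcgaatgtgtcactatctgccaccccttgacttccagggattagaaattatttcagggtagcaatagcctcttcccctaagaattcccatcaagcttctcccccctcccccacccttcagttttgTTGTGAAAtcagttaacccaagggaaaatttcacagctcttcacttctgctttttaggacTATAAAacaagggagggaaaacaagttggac
Il1rl1, upstream start: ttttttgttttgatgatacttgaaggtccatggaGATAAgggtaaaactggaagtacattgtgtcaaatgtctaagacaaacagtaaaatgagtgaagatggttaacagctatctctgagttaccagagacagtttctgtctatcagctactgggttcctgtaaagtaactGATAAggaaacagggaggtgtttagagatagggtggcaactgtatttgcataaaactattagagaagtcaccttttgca
Il1rl1, downstream start: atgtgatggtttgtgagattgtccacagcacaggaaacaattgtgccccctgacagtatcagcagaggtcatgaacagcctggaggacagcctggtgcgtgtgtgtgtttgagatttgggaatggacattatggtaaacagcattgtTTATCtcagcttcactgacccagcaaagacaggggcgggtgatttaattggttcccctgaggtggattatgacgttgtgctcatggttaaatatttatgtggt
The first bases after each of these windows were found in a GENCODE transcript of the same gene. Searched on both strands in the same way, TATAAA was present in 12.4% of all 32851 RefSeq promoter windows of this length, TTNNGNAA in 36.8% and GATAA in 22.6%. In Il1b the TATA box began 31 bases and the C/EBP match 91 bases before the start. The upstream Il1rl1 window held GATAA 216 and 79 bases before its start, and the downstream window held it on the opposite strand. The AP-1 letters TGANTCA (6.75% of windows) and the NF-kB consensus (7.25%) were not in these 3 windows. Both Il1rl1 windows also held TTNNGNAA, which is not capitalised there. Among the 10 members, 6 had TTNNGNAA, 3 had TATAAA (Il1b, Il1a and Il18) and 2 had GATAA (Il1rl1 and Il1r2) in at least 1 window. Counted by window, as the percentages are, 9 of the 16 member windows had TTNNGNAA, 3 had TATAAA and 3 had GATAA. The Il18 match to TATAAA lay at -175 on the opposite strand. The first bases after the Il18 window were not found in a GENCODE transcript. A match is a description of letters and does not show binding, and the deposited counts do not separate the start sites.

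Depth and breadth differed between the tissues. Totals ranged from 3748669 to 11741784 counts in skin and from 47243498 to 116158706 in SDLN, and 2911 to 5317 genes in skin and 12397 to 13002 in SDLN reached 1 count-per-million (CPM, of the library total). A value of at most 3 counts is called at the floor, which was 0.255 to 0.800 CPM in skin and 0.0258 to 0.0635 CPM in SDLN, and it covers counting error only. Foxp3, the gene that defines the sort, was counted 0, 330 and 1 times in skin Tregs A to C and 12208, 10133 and 1788 times in the SDLN libraries. Cd4 was counted 0, 1861 and 2 times in the skin libraries, whereas Cd3g, a chain of the CD3 complex, was between 607.0 and 887.8 CPM in them. Cd3e, another chain of this complex, was counted 0, 1757 and 2646 times there. All 17 Treg and T cell markers were above the floor in skin Treg B, 15 in C and 12 in A. Of 25 myeloid markers, 16 to 24 were above the floor in the skin libraries, with summed levels from 35830 to 62370 CPM, against 668.2 to 899.1 CPM in SDLN. At this depth, 2 of the 3 skin libraries thus went against the Foxp3 label in Foxp3 and Cd4 themselves. Other Treg genes of the list, Il2ra, Ctla4 and Ikzf2, were above the floor in every skin library. The 17 markers summed to 7936 to 11670 CPM in skin and 14130 to 15200 CPM in SDLN. Of genes averaging 30 to 100 CPM in SDLN, as Foxp3 did, 37.5% were at the floor in 2 skin libraries. At 300 to 1000 CPM, the range of Cd4, this share was 4.12%. Values without single libraries are given where they change a result.

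Of the 30 values of the 10 members in skin, 21 were at the floor, none of them above 1 count, and the other 9 were at least 37 counts. Skin Tregs A to C held 3, 2 and 4 members above the floor, against 8, 8 and 9 in SDLN Tregs A to C. Il1b was the 1 member above the floor in all 3 skin libraries, and 7 members were above it in all 3 SDLN libraries. No skin library held Il1a, Il1rn, Il1rap or Il18bp above the floor.

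**Figure D1:**
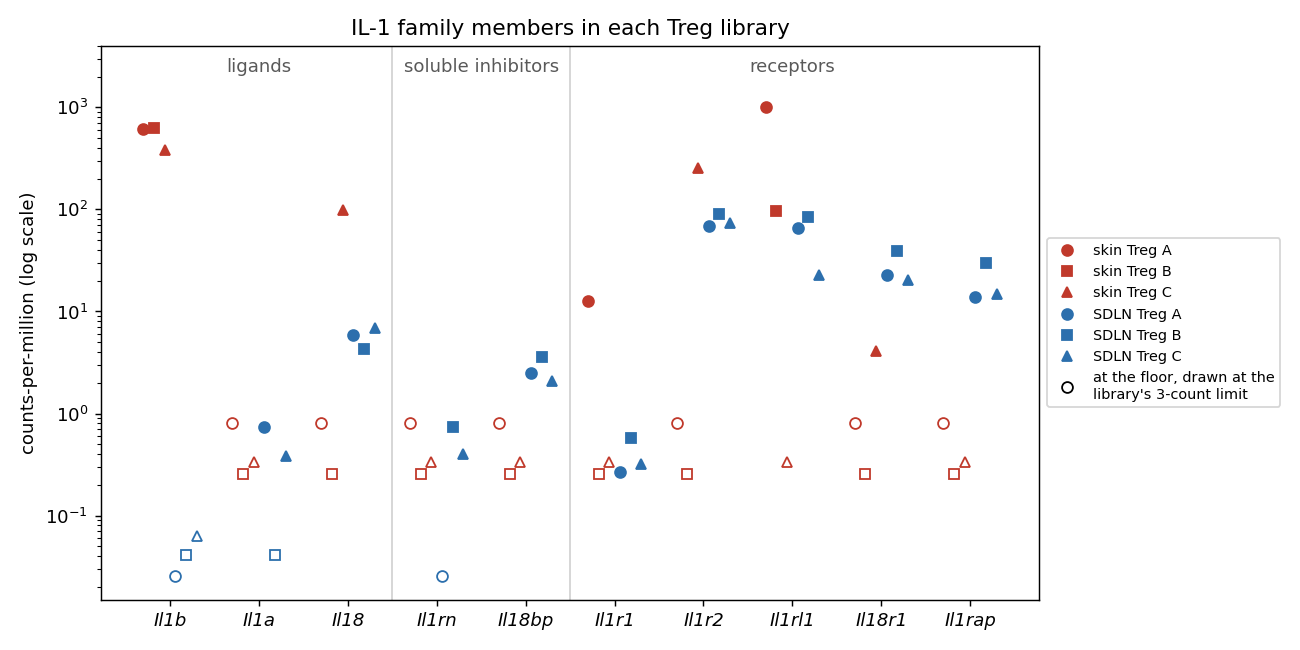
The level of each member in each library in CPM on a log scale, with skin Tregs in red, SDLN Tregs in blue, and open symbols drawn at the 3-count limit of the library where a gene was at the floor. Il1b was high in all skin and absent from all SDLN libraries, while Il1r2, Il18 and Il18r1 were above the floor in skin Treg C alone and Il1rl1 in skin Tregs A and B.

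With edgeR's quasi-likelihood test, 7 of the 10 members had enough counts to be tested. Il1b was higher in skin, Il1rap and Il18bp were lower, and Il1r2, Il1rl1, Il18 and Il18r1 did not pass an adjusted p of 0.05. Over all 13572 genes tested, 1.04% were called higher and 45.3% lower in skin, so that lower calls were common and higher calls rare. Of the lower calls, 94.4% were genes at the floor in every skin library, as were both lower members. Among the tested members, the groups did not overlap for Il1b (higher) and for Il1rap, Il18bp and Il18r1 (lower). Over all genes tested, 55.9% had no overlap, 2.39% with skin higher and 53.6% with skin lower. The median log2 fold change of the 7 tested members was 0.48, which is the value of Il1r2, against -2.21 over all genes tested. Without skin Treg C it was -10.12, against -7.20 over all genes, and without skin Treg A it was -0.34, against -6.10. With all libraries kept, it was -3.93 with limma voom, against -4.68, and -8.73 in a fit blocked by library letter, against -8.05. It was positive under the other alternatives, so its sign was not stable. Il1a, Il1rn and Il1r1 were removed by the filter on low counts. Fits with no filter or without a skin library did test them, and only Il1r1 without skin Treg A was called there.

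**Figure D2:**
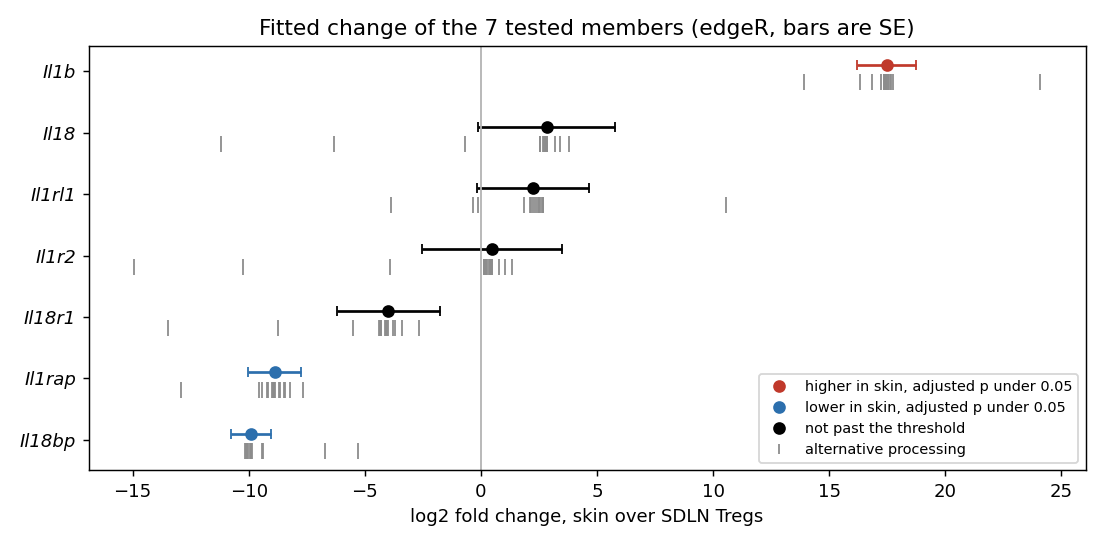
Fitted log2 fold change, skin over SDLN, of the 7 tested members with its SE (edgeR, n = 3 libraries each), and grey ticks for the same value under each alternative processing. Il1b stayed above 0 and Il1rap, Il18bp and Il18r1 below 0 under every alternative drawn, while Il1r2, Il1rl1 and Il18 lay on both sides of 0.

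Il1b was the ligand with the highest skin level. It was counted 2282, 7310 and 3471 times in skin Tregs A to C and 0 times in each SDLN library. That is 608.7, 622.6 and 384.2 CPM in skin, with a mean of 538.5 ± 133.8 CPM (SD, n = 3). All skin libraries were high and all SDLN libraries were empty, although the SDLN libraries were sequenced more deeply. Taking the lowest skin value against the highest SDLN floor, Il1b was at least 6050-fold higher in skin (adjusted p = 0.00322, edgeR), and the call held under all 16 alternatives, with adjusted p up to 0.0166. Per length of exon, Il1b reached 864.4, 934.9 and 585.8 transcripts-per-million (TPM) in the skin libraries. An antisense gene, Il1bos, shares 25 exon bases with Il1b and had 0 counts in all libraries.

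Myeloid genes moved with Il1b. Of 21 myeloid markers tested, 17 were higher in skin and 1, the integrin gene Itgam, was lower. Lyz2, the lysozyme of macrophages and granulocytes, was at 1978, 1520 and 1057 CPM in skin and reached 26.5, 53.7 and 38.4 CPM in the SDLN libraries. There were 0.308, 0.410 and 0.364 Il1b counts per Lyz2 count in skin, a highest over lowest of 1.33. The T cell gene Cd3g was about as steady against Il1b, with a highest over lowest of 1.48, so a steady ratio did not set Lyz2 apart. The SDLN libraries held 3078, 3906 and 1813 Lyz2 counts, which at the lowest skin ratio would go with 947, 1200 and 558 Il1b counts, whereas 0 were found. The size of this gap depended on the marker. The same sum gave 879, 433 and 574 Il1b counts for Cd68, a lysosomal protein of macrophages, 29.2, 50.2 and 36.5 for the dendritic cell lectin Cd209a, and 0, 0 and 2.67 for the macrophage mannose receptor Mrc1, which was close to absent from SDLN. The ratio to Csf1r, the macrophage growth factor receptor, was not stable, at 14.2 in skin Treg A and 1.05 and 0.762 in B and C. Neutrophil genes gave a different picture, since S100a8 and S100a9 had 0 counts in every skin library, and 12 of 13 neutrophil markers stayed at the floor there. The exception was Ltf (lactoferrin), with 3312 counts or 282.1 CPM in skin Treg B, against 2.10 to 4.26 CPM in SDLN. Itgam, which monocytes and neutrophils carry, was also at 0 in all skin libraries, and the monocyte gene Cd14 was above the floor in skin Treg B and in no other skin library. In bulk libraries, fewer cells of a type and less RNA per cell cannot be told apart, and the part that myeloid transcripts had in the Il1b level was not tested.

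**Figure D3:**
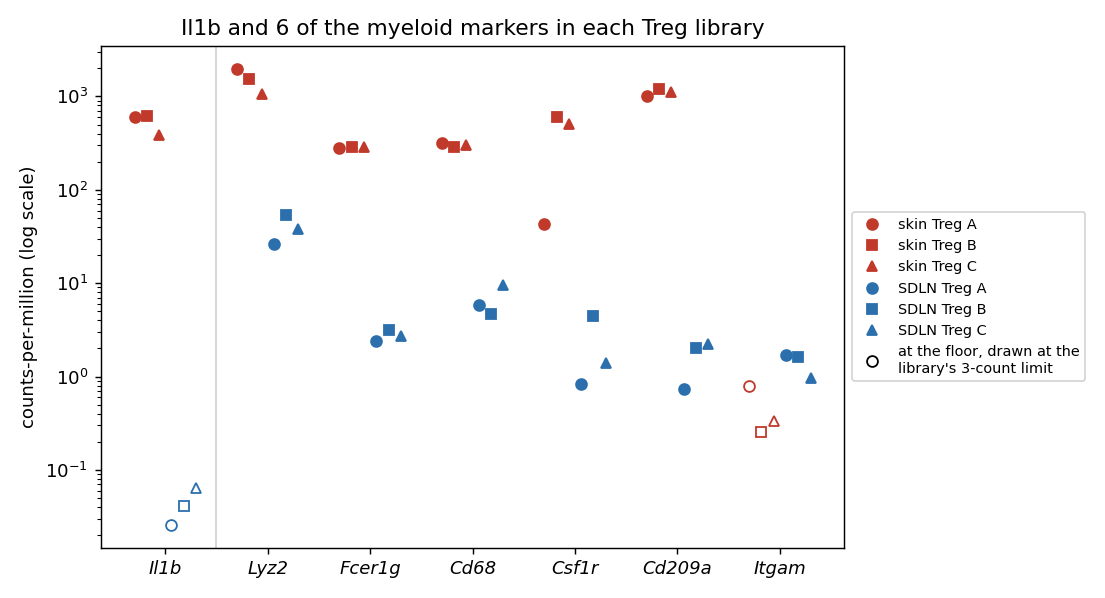
Il1b and 6 myeloid markers in each library in CPM on a log scale, with open symbols at the 3-count limit. Lyz2, Fcer1g, Cd68, Csf1r and Cd209a were higher in every skin library and still above the floor in SDLN, whereas Il1b had 0 counts there and Itgam had 0 counts in skin.

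The genes whose pattern was nearest to that of Il1b were Spag9, Ms4a7, Fcer1g, Hspa1a and H2-DMa, with Pearson r of log2(CPM + 1) from 0.998 to 0.999 over the 6 libraries. Fcer1g is the common Fc receptor gamma chain, Ms4a7 is a macrophage surface protein, H2-DMa loads antigen onto MHC class II, Hspa1a is a heat-shock protein and Spag9 a scaffold of JNK signalling. Hspa1a was at 1550, 1132 and 446.1 CPM in skin and had 1 count in the SDLN libraries together, the value closest to the on and off pattern of Il1b among the 5. Hspa1a has a near-identical copy, Hspa1b, so its counts are uncertain. The 6 libraries form 2 groups of 3, 94 of 9493 genes had r of at least 0.95, and the list is a description without a test.

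Il18 behaved differently from Il1b. It was counted 0, 0 and 894 times in skin Tregs A to C (99.0 CPM in C) and 689, 314 and 329 times in SDLN Tregs A to C (5.93, 4.31 and 6.96 CPM). The groups overlapped because 2 skin libraries were empty and the remaining one was above all SDLN libraries. The log2 fold change was 2.84 ± 2.96 (SE, adjusted p = 0.615, edgeR). Without skin Treg C it was -11.18 with adjusted p = 0.00418, so 1 library set its direction.

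Il1a, the ligand that needs no cut to act, was close to absent. It had 0 counts in each skin library and 85, 1 and 18 counts in SDLN Tregs A to C, up to 0.732 CPM. The SDLN mean would have given 1.41, 4.41 and 3.39 counts in skin Tregs A to C, at or barely above the floor, so these zeros say little. Of the genes with an SDLN level within 1.5-fold of that of Il1a, 84.4% were at the floor in each of the 3 skin libraries.

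Both soluble inhibitors were missing from skin. Il1rn, the antagonist of the IL-1 receptor, had 0 counts in each skin library and 0, 54 and 19 counts in SDLN Tregs A to C (at most 0.742 CPM). No skin library therefore held antagonist transcripts beside its Il1b, although Il1rn in SDLN lay near the skin floor as well. Il18bp, which captures IL-18, had 0 counts in all skin libraries and 292, 262 and 99 in SDLN (2.51, 3.60 and 2.10 CPM). All SDLN libraries lay above all skin libraries, and Il18bp was at least 2.62-fold lower in skin, taking the lowest SDLN value against the highest skin floor (adjusted p = 0.00336, edgeR). It was called in all 15 alternatives that tested it, and was not tested once every library had been drawn down to the smallest total. Il18bp shares 80 exon bases with Numa1 on the opposite strand, and since the strand setting of the counting is not stated, its low counts are uncertain. At its SDLN level, 70.4% of genes were at the floor in each of the 3 skin libraries.

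The receptors differed from one skin library to the next. Il1r1, the receptor through which IL-1α and IL-1β signal, had 47, 0 and 0 counts in skin Tregs A to C and 31, 42 and 15 in SDLN. Its level in skin Treg A was 12.5 CPM (95% exact binomial interval 9.21 to 16.7), above the SDLN levels of 0.267, 0.577 and 0.317 CPM. The other skin libraries were empty, so the groups overlapped, and Il1r1 was too low to be tested with all libraries. Without skin Treg A it was called lower in skin (adjusted p = 0.0458, edgeR), and without B or C its fitted change was positive and did not pass, so skin Treg A set its direction. At its mean SDLN level, Il1r1 would have reached only 4.55 and 3.5 counts in skin Tregs B and C, barely above the floor. The zeros of B and C therefore say little, and the call without skin Treg A rests on them. Among genes of similar SDLN level, 83.8% had no skin library above the floor. All skin libraries held Il1b, whereas 1 of them held Il1r1, a contrast that these zeros cannot settle.

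Il1r2, the decoy, was the most abundant member in SDLN. Its counts were 0, 0 and 2299 in skin Tregs A to C (254.5 CPM in C) and 7923, 6585 and 3444 in SDLN Tregs A to C (68.2, 90.5 and 72.9 CPM). Skin Treg C was higher than every SDLN library, and skin Tregs A and B were empty, although a level like the SDLN mean would have given 289 and 906 counts in them. The log2 fold change was 0.48 ± 3.02 (SE, adjusted p = 0.965, edgeR). It was -14.94 without skin Treg C, with adjusted p = 0.00574, and -3.93 with limma voom, which gave an adjusted p of 0.256. Of the genes at a similar SDLN level, 36.6% were at the floor in 2 skin libraries and 20.8% in all 3, so a pattern of this kind was common in these libraries.

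Il1rl1, which encodes ST2, had the highest CPM of any member in any single library, although per length of exon Il1b was higher. It was counted 3740, 1122 and 0 times in skin Tregs A to C (997.7, 95.6 and 0 CPM) and 7603, 6151 and 1079 times in SDLN Tregs A to C (65.5, 84.5 and 22.8 CPM). Skin Treg A was far above all other libraries, B was slightly above the highest SDLN library, and C was empty, where the SDLN mean would have given 520 counts. The groups overlapped, and the log2 fold change was 2.24 ± 2.41 (SE, adjusted p = 0.633, edgeR). Without skin Treg A it was -0.34, and no alternative out of 16 called it. Mast cells and innate lymphoid cells are also known to carry ST2. In skin Treg A, 2 of 14 mast cell and basophil markers were above the floor, the protease genes Cma1 (811 counts) and Cpa3 (32 counts), while Kit, Fcer1a, Ms4a2 and Tpsb2 had 0 counts. The summed level of the list was 225.7, 43.8 and 252.9 CPM in skin Tregs A to C and 21.7 to 37.2 CPM in SDLN. Single genes made most or all of it in skin, Cma1 in A (216.3 CPM) and Hpgds in B and C (43.8 and 252.9 CPM). It was highest in C, where Il1rl1 had 0 counts. Of 4 genes tested, Kit and Hdc were lower in skin and none was higher. Of 14 innate lymphoid and cytotoxic markers, 11 were at the floor in every skin library, Il17rb, Il5 and Il13 among them. Gzmb and Nkg7 were higher in skin. The part of these cells in the Il1rl1 level was not tested. The count joins the membrane and the secreted forms of ST2.

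The 5 genes nearest to Il1rl1 in pattern were Paxx, Tbc1d30, Lnpk, Ociad1 and Synj1, with r from 0.994 to 0.997 over the 6 libraries, and 130 of 9493 genes reached 0.95. Paxx, a DNA repair factor, was at 346.8, 39.6 and 0 CPM in skin, and Lnpk, an endoplasmic reticulum protein, at 598.9, 68.1 and 0 CPM. These genes repeat the order of the skin libraries seen for Il1rl1, with A highest and C lowest, and none belongs to the IL-1 lists used here.

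Il18r1, the ligand-binding chain of the IL-18 receptor, had 0, 0 and 37 counts in skin Tregs A to C (4.10 CPM in C) and 2651, 2864 and 969 in SDLN (22.8, 39.3 and 20.5 CPM). All skin libraries were below all SDLN libraries. The log2 fold change was -3.98 ± 2.24 (SE, adjusted p = 0.251, edgeR). It passed the threshold in 3 of 16 alternatives, namely DESeq2 (adjusted p = 0.0410), limma voom (0.0263) and the fit without skin Treg C (0.00432), in which the log2 fold change was -13.45. Skin Treg C therefore held the ligand Il18 at a higher level than SDLN and the receptor at a lower one, and the partner chain Il18rap was at 0 in all skin libraries.

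Il1rap, the accessory chain that both IL-1R1 and ST2 need, was counted 0, 1 and 0 times in skin Tregs A to C and 1623, 2186 and 696 times in SDLN Tregs A to C (14.0, 30.03 and 14.7 CPM). All SDLN libraries were high and no skin library rose above the floor. The pooled ratio of SDLN over skin was 468, with a 95% exact interval of 83.9 to 18500 that covers counting error only (adjusted p = 0.00322, edgeR, called in all 16 alternatives). At its SDLN level, 55.2% of genes were at the floor in each of the 3 skin libraries. SDLN Tregs held 0.213, 0.355 and 0.645 Il1rap counts per Il1rl1 count. At the lowest of these ratios, the Il1rl1 counts of skin Tregs A and B would go with 798 and 240 Il1rap counts, whereas 0 and 1 were found. The Il1r2 counts of skin Treg C would in the same way go with 465 Il1rap counts, against 0. Il1rl1 and Il1r2 were thus above the floor in skin libraries where the accessory chain was not. Il1rap shares 552 exon bases with the antisense gene Gm20319, which had 1 count in all.

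How often a gene dropped to the floor in skin depended on its SDLN level. Of 2680 genes with 10 to 30 CPM in SDLN, 56.5% were at the floor in each of the 3 skin libraries and 4.44% in none. Of 3649 genes with 30 to 100 CPM, 28.7% were at the floor in 3, 37.5% in 2 and 25.1% in 1. Il1rap and Il18r1 belong to the first of these ranges and Il1r2 and Il1rl1 to the second. Each of these members had at least 1 empty skin library, as most genes of its range did.

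**Figure D4:**
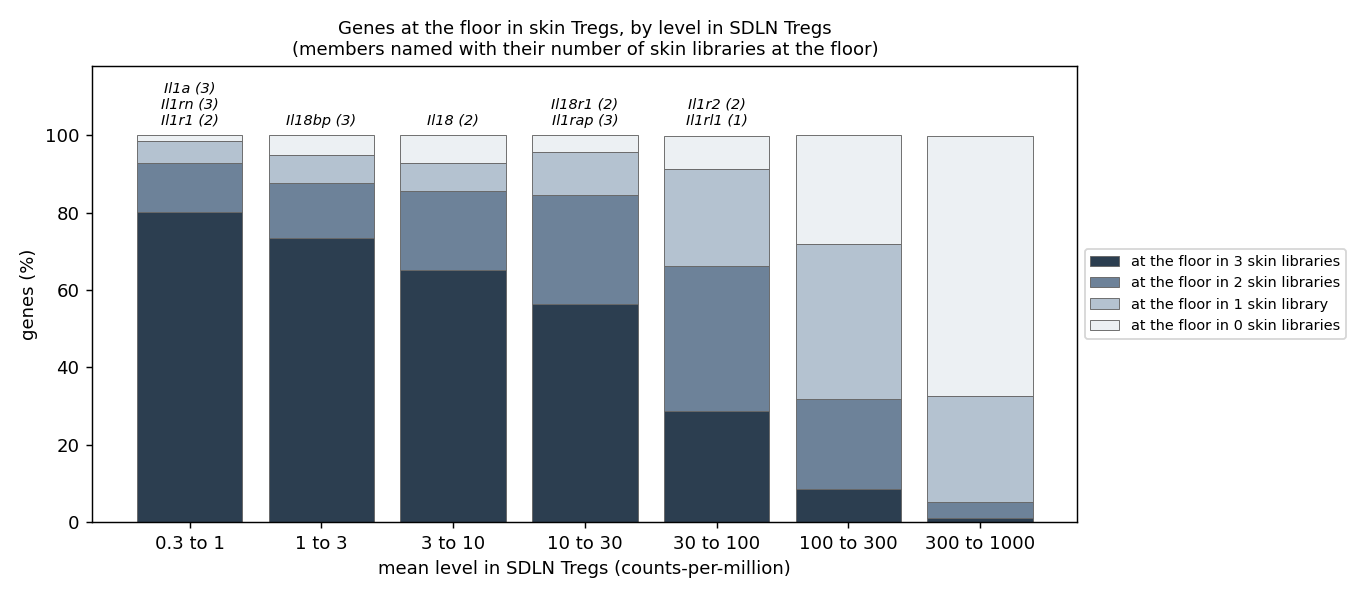
The share of genes (%) at the floor in 0 to 3 skin libraries, in ranges of the mean SDLN level in CPM, with the members named above their range and their number of skin libraries at the floor in brackets. The share of genes at the floor in each of the 3 skin libraries was 80.3% at 0.3 to 1 CPM and 1.03% at 300 to 1000 CPM.

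In SDLN Tregs, where 7 members were detected in every library, levels can be compared per length of exon. Il1r2 led with 117.5 ± 22.9 TPM (SD, n = 3), followed by Il1rl1 with 24.5 ± 14.1, Il18r1 with 16.7 ± 7.01, Il18 with 16.0 ± 3.14, Il1rap with 5.05 ± 2.57 and Il18bp with 2.64 ± 0.866 TPM. Il1a, Il1rn and Il1r1 were each below 1 TPM on average, and Il1b was at 0. The libraries of Il1r2 lay above all those of Il1rl1, those of Il18 above Il1rap, and those of Il18bp above Il1a. Neighbours from Il1rl1 to Il18, Il1rap and Il18bp, and Il1a to Il1r1, overlapped. The decoy exceeded the signalling receptor by far, with an Il1r2 over Il1r1 ratio of 852, 523 and 766 in SDLN Tregs A to C. The Il1rl1 over Il18r1 ratio was less even, from 0.778 in SDLN Treg C to 2.00 in A (1.43 ± 0.616, SD, n = 3). With the longest transcript in place of all exon bases, Il1rap was at 9.51 TPM, its libraries overlapped with those of Il18, and the mean Il1r2 over Il1r1 ratio was 878.

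The other genes of the pathway were read from 5 lists with 93 genes, of which 71 were tested. In these lists 5 genes were higher in skin, 20 were lower and 46 did not pass, so 35.2% were called, against 46.3% of all genes tested. Of the lower genes, 18 were at the floor in every skin library.

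**Figure D5:**
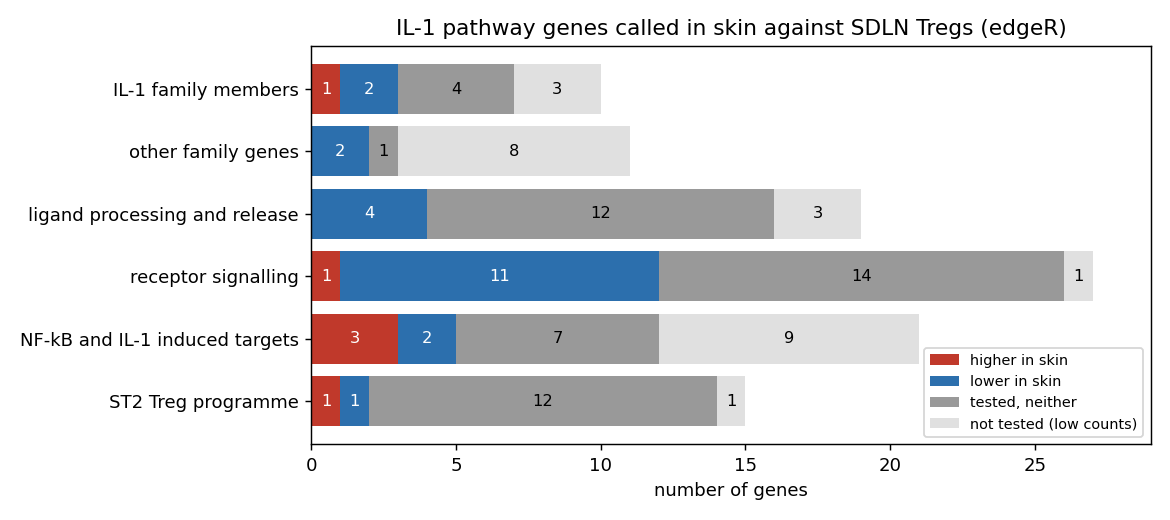
Number of genes in each list that were higher in skin, lower in skin, tested without passing, or not tested for low counts (edgeR, adjusted p of 0.05). The receptor signalling list had 11 lower and 1 higher call and the targets of NF-kB and IL-1 had 2 lower and 3 higher, while 45.3% of all genes tested were lower and 1.04% higher.

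Among the other family genes, 2 of 3 tested were lower in skin. Il18rap, the second chain of the IL-18 receptor, had 0 counts in skin and was at 21.3, 43.1 and 17.7 CPM in SDLN (adjusted p = 0.00362, edgeR). Sigirr, an inhibitory member of the receptor family, had 0 counts in skin and was at 183.5, 133.2 and 198.5 CPM in SDLN (adjusted p = 0.00992). The call of Sigirr was lost whichever SDLN library was left out, with adjusted p up to 0.0614. Il1rl2, the IL-36 receptor, was at 20.8 CPM (188 counts) in skin Treg C and at 0 in A and B, against 1.99 to 4.11 CPM in SDLN. Il33, the ligand of ST2, had 0 counts in all 6 libraries, and so had the IL-36 ligand genes Il1f6, Il1f8 and Il1f9. Il1rl2 was thus the only gene of this list above the floor in any skin library.

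Of 16 tested genes for processing and release of the ligands, 4 were lower in skin and none was higher (Aim2, Capn1, P2rx7 and Serpinb1a). Aim2, a sensor of cytosolic DNA that builds an inflammasome, fell from 31.6, 29.8 and 10.1 CPM in SDLN to at most 1 count in skin (adjusted p = 0.00468, edgeR). P2rx7, the ATP-gated channel that triggers release of IL-1β, was at 42.4, 61.4 and 37.9 CPM in SDLN and had 0 counts in skin (adjusted p = 0.00514). Casp1, which cuts IL-1β, reached 72.6 CPM (272 counts) in skin Treg A, had 0 counts in B and C, and was at 11.7 to 18.1 CPM in SDLN. Nlrp3, the inflammasome sensor best known for IL-1β, had 0 counts in every skin library and 1 count in SDLN. Pycard, the adaptor that links sensors to caspase-1, had 0, 924 and 1328 counts in skin, and Gsdmd, the pore that lets IL-1β out, had 0, 1356 and 0. No skin library held Casp1, Pycard and Gsdmd together, and none of the 3 passed the threshold (adjusted p = 0.977, 0.820 and 0.990, edgeR). Empty skin libraries were common at their SDLN levels. Of genes with 10 to 30 CPM in SDLN, the range of Casp1, 28.0% were at the floor in 2 skin libraries and 56.5% in 3. For the range of Gsdmd, 30 to 100 CPM, these shares were 37.5% and 28.7%. For the range of Pycard, 100 to 300 CPM, 40.0% were at the floor in 1.

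Among 26 tested genes of receptor signalling, 11 were lower and 1 was higher in skin, and 45.3% of all genes tested were lower. The lower genes include kinases and adaptors that act after IL-1R1, ST2 and IL-18R. Irak4, the first kinase, was at 40.2, 36.1 and 29.2 CPM in SDLN and had 0 counts in skin (adjusted p = 0.00362, edgeR). Map3k7 (the kinase TAK1) and Mapk8 (the kinase JNK1) also had 0 counts in every skin library, from 18.4 ± 5.15 and 34.9 ± 5.03 CPM in SDLN. Tab1, which binds TAK1, had at most 1 count in skin and 35.6 ± 4.29 CPM in SDLN (adjusted p = 0.00502). Myd88, the adaptor of the receptors, did not pass, with 0, 1541 and 1536 counts in skin Tregs A to C. Rel, the NF-kB subunit c-Rel, was the higher gene, at 710.4, 335.8 and 617.6 CPM in skin and 84.9, 123.5 and 42.4 CPM in SDLN. Its log2 fold change was 2.73 ± 0.67 (SE, adjusted p = 0.0175, edgeR), and 11 of 17 alternatives called it, with adjusted p up to 0.196.

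Of 12 tested targets of NF-kB and IL-1, 3 were higher and 2 were lower in skin. All 3 higher genes limit or shape NF-kB. Tnfaip3, the enzyme A20 that ends NF-kB signals, was at 972.1, 577.1 and 555.6 CPM in skin and 71.0, 75.5 and 38.9 CPM in SDLN (a log2 fold change of 3.43 ± 0.53, SE, and adjusted p = 0.00386, edgeR). Nfkbia, the inhibitor IκBα, was at 1316, 1037 and 1045 CPM in skin and 350.1, 354.6 and 286.2 CPM in SDLN (1.75 ± 0.33, adjusted p = 0.00710). The call of Tnfaip3 was lost with upper quartile scaling (adjusted p = 0.0679), and that of Nfkbia with upper quartile scaling and without a filter, with adjusted p up to 0.176. In both genes every skin library was above every SDLN library. Nfkbiz, a nuclear cofactor of NF-kB, was at 1128, 80.4 and 291.5 CPM in skin and 35.6, 64.4 and 28.4 CPM in SDLN. Its log2 fold change was 3.30 ± 1.04 (adjusted p = 0.0451), but 5 of 17 alternatives called it, with adjusted p up to 0.389. Tnf and Lif, both secreted cytokines, had 0 counts in skin, and Tnf was at 15.4, 23.2 and 8.81 CPM in SDLN (adjusted p = 0.00344). Il6, Cxcl1, Ccl20 and Csf3, which IL-1 induces in stromal and myeloid cells, had 0 counts in all 6 libraries. The chemokine gene Ccl2 had 0, 2617 and 1705 counts in skin and Cxcl2 had 1043, 0 and 0, against at most 36 and 3 counts in an SDLN library.

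Of 14 tested genes of the programme that goes with ST2 in Tregs, 1 was higher, 1 was lower and 12 did not pass. Several of the 12 differed widely between skin libraries, such as Irf4 at 515.1, 0 and 0 CPM and Ebi3 at 0, 0 and 214.2 CPM, so the test left their change unresolved. Il10, an anti-inflammatory cytokine of Tregs and myeloid cells, was at 279.8, 302.8 and 162.7 CPM in skin and 18.3, 23.5 and 10.7 CPM in SDLN (a log2 fold change of 3.79 ± 1.00, SE, and adjusted p = 0.0221, edgeR). It was called in 11 of 17 alternatives and was lost whichever SDLN library was left out, among others, with adjusted p up to 0.428. Pparg, a nuclear receptor of tissue Tregs, had 0 counts in skin and was at 21.1, 18.0 and 13.6 CPM in SDLN (adjusted p = 0.00322). Gata3, a transcription factor of ST2+ Tregs, was at 852.0, 955.2 and 1181 CPM in skin and 882.6, 652.1 and 1545 CPM in SDLN, and the groups overlapped (-0.03 ± 0.53, adjusted p = 0.988). Gata3 was thus present in skin Treg C, where Il1rl1 had 0 counts. Areg, a repair factor known from ST2+ Tregs, had at most 1 count in any skin library and was at 0.138 to 0.481 CPM in SDLN, around the skin floor of 0.255 to 0.800 CPM, so its skin values say little.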

How the data were processed

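RNA was measured in 3 skin Treg and 3 SDLN Treg samples. Per the labels and the study's methods, the authors trimmed reads with Trimmomatic 0.36, mapped them to GRCm38 with STAR 2.5.2b and assigned unique exon reads to genes with featureCounts (Subread 1.5.2). The deposited values are raw counts without normalization. The annotation release, strand setting and duplicate handling are not given in the sources used here, and no molecular identifiers are described, so intervals cover counting error only. GENCODE M21 named 48970 of 49315 genes.

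Testing used edgeR 4.0.16 (robust quasi-likelihood, filterByExpr, TMM, tissue as the only term) in R 4.3.3, with Benjamini-Hochberg adjustment over 13572 genes and a threshold of 0.05. SE was derived from the F statistic. TPM used the union of exon bases. Each sample pools mice, and p-values measure only the spread between these samples. With a common dispersion of 2.04, single libraries weigh heavily.

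Members, lists and tests were chosen with earlier results of these data known, so nothing here is independent of them. The text names all members, called genes of each list that averaged 10 CPM or more in the higher tissue (up to 4 per direction by adjusted p), the 5 genes most like Il1b and Il1rl1 in pattern, and marker genes. Other genes were named for their role after their values were seen. Alternatives were other normalizations, DESeq2 1.42.0, limma 3.58.1 voom, other filters, equal depth and leaving out each library. Column letters are not tied to the replicate numbers of the titles, and a fit blocked by letter was added after seeing the data.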

Additional observations from a re-analysis of the deposited data

How the results depend on the processing

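Every alternative that tested them called Il1b higher and Il1rap lower. Drawing all libraries down to the smallest total left 1 member lower (Il1rap), because Il18bp was no longer tested. Leaving out 1 library at a time gave 1 member higher each time and 2 to 5 lower, the 5 without skin Treg C (Il18, Il18bp, Il18r1, Il1r2 and Il1rap). Requiring at least 10 counts in every library left no member to test. The log2 fold change changed sign with limma voom for Il1r2 (-3.93), Il1rl1 (-3.87) and Il18 (-0.67), without skin Treg C for Il1r2 (-14.94) and Il18 (-11.18), and without skin Treg A for Il1rl1 (-0.34), and the cause of the voom values was not tested. Over the fits that left out 1 library, the values ran up to 1.05 for Il1r2, 2.69 for Il1rl1 and 3.42 for Il18. In the pathway lists 5 genes were higher, against 0 with upper quartile scaling, 8 with DESeq2, 1 without a filter, and 2 to 9 when 1 library was left out. The 20 lower genes became 0 when 10 counts were required in every library, which left 19 genes to test, and 16 to 25 when 1 library was left out. Upper quartile scaling moved the median log2 fold change of 1623 genes above the floor everywhere from 0.28 to 6.82, and the cause was not tested. Letters of the libraries are not explained in the labels, and same-lettered libraries did not deviate together (correlations 0.0199, -0.021 and 0.0753 over 13572 genes). A replicate block by letter, added after seeing the data, gave the same 3 called members, 2 higher and 18 lower pathway genes, and log2 fold changes of -10.22 for Il1r2, -0.11 for Il1rl1 and -6.31 for Il18, none past the threshold. In skin Treg A the floor of 0.800 CPM exceeds the SDLN levels of Il1a, Il1rn and Il1r1.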
